A study of Mus musculus with 5 samples.

Results

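Of the 19938 genes measured in a series on mouse embryonic stem (ES) cells that overexpress Satb1, 8 were taken for their part in mitophagy, the removal of mitochondria by autophagy. They are Bnip3, Bnip3l, Fundc1, Fundc2, Pink1, Fkbp8, Phb2 and Bcl2l13, and 10 probe sets that carry 1 of these symbols alone measure them. Where a gene had several, the one with the higher mean across the 5 arrays represents it, and the other is shown beside it. Bnip3 was chosen by its lower level on these same DOX arrays relative to the no DOX arrays, so its values are a description without a test. The other 7 genes are listed for their function, with earlier results of the same arrays known.

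Both groups were ES cells that carry a Satb1 transgene under the doxycycline-responsive tetO promoter. The induced group (DOX) had 3 arrays from cells given doxycycline for 24 h, and the uninduced group (no DOX) had 2 arrays from cells of the same title that were given none. RNA was prepared 48 h after passaging in serum and LIF, the cytokine that keeps ES cells undifferentiated. One protocol places the cells on irradiated feeders, which were thinned out by letting the suspension settle for 10 min. No strain, clone or culture is given per array, so the spread within a group may be technical. Cells without the transgene but with doxycycline were not part of the design, and an effect of doxycycline cannot be told apart from one of Satb1.

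Mitophagy begins on the outer mitochondrial membrane. Receptor proteins such as BNIP3, NIX (the product of Bnip3l), FUNDC1, FKBP8 and BCL2L13 hold a short motif that binds the ATG8 family, the LC3 and GABARAP proteins of the growing autophagosome, and so tie a mitochondrion to it. PINK1 works differently: this kinase accumulates on damaged mitochondria, phosphorylates ubiquitin and activates the ubiquitin ligase Parkin, whose marks are read by adaptors such as optineurin. PHB2, a prohibitin of the inner membrane, becomes a receptor once the outer membrane has ruptured. Bnip3 and Bnip3l are known targets of hypoxia-inducible factor (HIF), and NIX is best known for clearing mitochondria from maturing red blood cells. ES cells hold immature mitochondria and rely heavily on glycolysis.

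Satb1 followed the labels of the arrays. Satb1 had log2 levels of 8.61, 8.79 and 8.68 on the DOX arrays, against 4.95 and 5.34 on the no DOX arrays. The 10 ES cell markers, among them Pou5f1, Sox2 and Nanog, had mean log2 levels of 9.18, 9.18 and 9.17 on the DOX arrays, against 9.16 and 9.23 on the no DOX arrays. Of the 10, Tdgf1 alone separated the groups, with 11.07, 11.09 and 11.01 on the DOX arrays, against 11.23 and 11.29 on the no DOX arrays. Its change of -0.21, close to that of Bnip3l, did not pass (adjusted p = 0.77, limma). The 17 feeder fibroblast markers measured averaged 5.16, 5.18 and 5.16 on the DOX arrays, against 5.14 and 5.15 on the no DOX arrays. The mean was higher in 10 of them, lower in 5 and equal in 2, and in none did the groups separate. Primitive endoderm markers averaged 5.23, 5.20 and 5.24 on the DOX arrays, against 5.23 and 5.22 on the no DOX arrays, where Gata6 (0.08) and Lama1 (-0.08) separated the groups without passing. These arrays hold a mixture of all cells in the dish, in which fewer cells of a type and less RNA per cell cannot be told apart.

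Bnip3 was the receptor gene with the lowest level in induced relative to uninduced cells, and Bnip3l was the only other one whose groups separated. Bnip3 lay 1.84-fold and Bnip3l 1.17-fold below the uninduced cells. The 6 remaining genes had changes from -0.19 to 0.06 on the log2 scale, and in all 6 the DOX values overlapped the no DOX values. Genes whose DOX values all lay below both no DOX values made up 3.08% of all genes and 2 of the 8 receptor genes, 1 of them Bnip3, which was chosen for this. Those whose DOX values all lay above made up 1.65% of all genes and none of the 8. The median log2 change was -0.07 over the 8 genes and 0.00 over all genes. The 8 again include Bnip3, which was chosen for its lower level, so their median is a description.

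**Figure D1:**
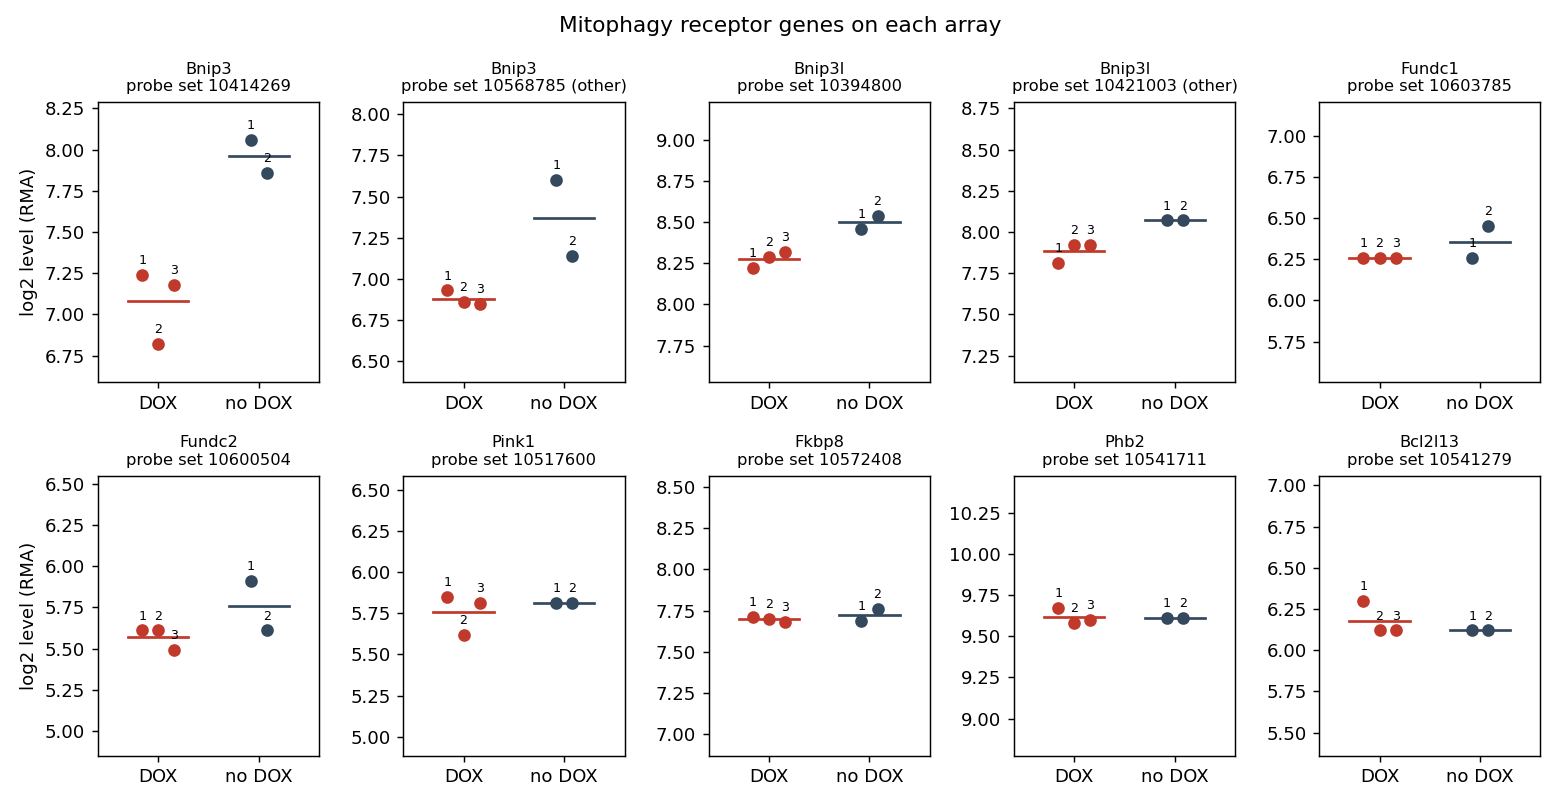
Log2 level (RMA, y axis) of the 10 probe sets of the 8 receptor genes on each array, with the 3 DOX arrays left and the 2 no DOX arrays right. Points carry the array number, bars are group means, and every panel spans the same height on the log2 scale. Only the probe sets of Bnip3 and Bnip3l have all DOX points below both no DOX points.

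Bnip3 encodes a BH3-like protein of the outer membrane, first found as a binding partner of BCL2-type proteins. Its probe set with the highest mean, 10414269, had log2 levels of 7.24, 6.82 and 7.18 on the DOX arrays, against 8.06 and 7.86 on the no DOX arrays. Every DOX array lay at least 0.62 below both no DOX arrays, while values within a group spanned 0.41 and 0.20. The group means were 7.08 ± 0.22 (SD, n = 3) in DOX cells and 7.96 ± 0.14 (SD, n = 2) in no DOX cells. The log2 change was -0.88 ± 0.17 (standard error from the limma fit over all genes). Among the 19938 genes this change ranked second from the lowest, after Egln3, and 6 genes (0.0301%) were at least 1.5-fold lower. The rank restates the values that Bnip3 was chosen by. It holds for this probe set only, as the other was 1.41-fold lower.

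The other probe set of Bnip3, 10568785, moved the same way by a smaller amount. Its log2 levels were 6.93, 6.86 and 6.85 on the DOX arrays, against 7.60 and 7.14 on the no DOX arrays. The groups separated by 0.22, which is less than the 0.46 between the no DOX arrays. The means were 6.88 ± 0.04 (SD, n = 3) in DOX cells and 7.37 ± 0.32 (SD, n = 2) in no DOX cells, a log2 change of -0.50 or 1.41-fold. Without no DOX array 1 its change was -0.27, and without no DOX array 2 it was -0.73, so the size of the change depended on which uninduced array was used.

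The pair of probe sets differs in where they stand on the array. Probe set numbers run along the genome: of 21698 probe sets with a gene placed in RefSeq's GRCm38.p6 table, 96.9% had a gene on the commonest chromosome among their 10 nearest numbers. Number 10414269 stands between those of BC061237 and Ptger2, and all 10 neighbours belong to chromosome 14, whereas the Bnip3 gene lies on chromosome 7. Number 10568785 stands between Mapk1ip1 and Stk32c, which lie on chromosome 7 like Bnip3. The annotation gives both probe sets the same Bnip3 transcripts. Whether 10414269 reads Bnip3 mRNA, a copy of it elsewhere or both cannot be told apart here, and the smaller of the 2 changes, -0.50, comes from the probe set at the position of the gene.

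Bnip3l showed the same arrangement. This gene encodes NIX, the closest relative of BNIP3. Its probe set with the highest mean, 10394800, had log2 levels of 8.22, 8.29 and 8.32 on the DOX arrays, against 8.46 and 8.54 on the no DOX arrays. All 10 of its neighbours in number belong to chromosome 12, and RefSeq lists the pseudogene Bnip3l-ps there, between the genes of the adjacent probe sets, Gm4983 and 5730507C01Rik. The second probe set, 10421003, stands between Dpysl2 and Ppp2r2a on chromosome 14, as the Bnip3l gene does. It had 7.81, 7.92 and 7.92 on the DOX arrays, against 8.07 and 8.07 on the no DOX arrays.

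Both probe sets of Bnip3l separated the groups by 0.15, and their changes were close, at -0.23 ± 0.04 (standard error) for the first and -0.19 for the second. The group means of the first were 8.28 ± 0.05 (SD, n = 3) in DOX cells and 8.50 ± 0.05 (SD, n = 2) in no DOX cells, a difference over 4 times either SD. In the fit over all genes Bnip3l had an unadjusted p of 0.0101 and did not pass the threshold of 0.05 after Benjamini-Hochberg adjustment (adjusted p = 0.77, limma). Changes at or below that of Bnip3l were found in 218 genes, 1.09% of all.

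Over all probe sets, 96.9% stood among neighbours of their own chromosome. Among genes with several probe sets, however, a leading one away from its gene is not rare. Of 993 genes with several probe sets whose leading one could be placed, 252 (25.4%) had a leading probe set among neighbours of another chromosome. The other 6 receptor genes had 1 probe set each, and all 6 stood among neighbours of their own chromosome.

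The DNA before the start of Bnip3 is shown because HIF binds the core letters ACGTG or GCGTG, and because Bnip3 had the largest change among the receptor genes. The sequence is the 250 bases before the RefSeq start, chr7:138909507-138909756 of GRCm38.p6, on the minus strand. Fkbp8, whose level hardly differed between the groups, is set beside it with the same window, chr8:70527493-70527742, plus strand. Capitals mark ACGTG or GCGTG on either strand, which read CACGT or CACGC when the letters lie on the opposite strand.
Bnip3: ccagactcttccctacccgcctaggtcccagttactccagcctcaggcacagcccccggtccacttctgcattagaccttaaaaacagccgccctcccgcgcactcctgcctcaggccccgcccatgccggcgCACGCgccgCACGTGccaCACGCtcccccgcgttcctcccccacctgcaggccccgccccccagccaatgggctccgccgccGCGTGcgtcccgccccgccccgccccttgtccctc
Fkbp8: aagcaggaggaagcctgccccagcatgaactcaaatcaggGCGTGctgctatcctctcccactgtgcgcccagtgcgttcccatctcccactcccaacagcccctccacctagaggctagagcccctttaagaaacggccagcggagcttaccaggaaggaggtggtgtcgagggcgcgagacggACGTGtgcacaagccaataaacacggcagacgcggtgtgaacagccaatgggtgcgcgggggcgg

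Bnip3 had 4 marked stretches. One, from base -108, is the palindrome CACGTG, which holds ACGTG on both strands. The others are GCGTG on the opposite strand from bases -117 and -99 and on the printed strand from base -35. Fkbp8 had ACGTG from base -65 and GCGTG from base -210, so a gene with little difference between the groups holds the same letters. Windows of 7 of the 8 genes were found in the RefSeq table, and Bnip3l was not matched. ACGTG was present in 4 of the 7 and in 16.6% of all 32851 windows of this length. GCGTG was present in 4 of the 7 and in 28.2% of all windows. CACGTG was present in Bnip3 alone among the 7 and in 6.02% of all windows. The window of Fundc1 held neither set of letters. The windows of the 7 genes were rich in G and C, from 57.2% in Pink1 to 72.4% in Bnip3, which makes such letters more frequent. A match in letters does not show binding, and an absent match says nothing about the factor.

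FUNDC1 is an outer membrane receptor that is controlled by phosphorylation near its ATG8-binding motif. Fundc1 had 1 log2 level, 6.26, on all 3 DOX arrays and on no DOX array 1, against 6.45 on no DOX array 2. The change of -0.09 ± 0.07 (standard error) thus came from a single no DOX array, and it was 0 without that array. In limma over all genes the adjusted p was 0.77. Without no DOX array 1 the change was -0.19 and the gene passed (adjusted p = 2.0e-04), in a fit where the spread came only from the DOX arrays, which had identical values.

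Fundc2, the relative of Fundc1, had log2 levels of 5.61, 5.61 and 5.49 on the DOX arrays, against 5.91 and 5.61 on the no DOX arrays. DOX arrays 1 and 2 had exactly the value of no DOX array 2, and the change of -0.19 ± 0.12 (standard error) did not pass (adjusted p = 0.77, limma). Without no DOX array 1 it was -0.04, and without no DOX array 2 it was -0.34. The 95% interval of the change ran from -0.53 to 0.15, which includes changes larger than that of Bnip3l.

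Pink1 had log2 levels of 5.85, 5.62 and 5.81 on the DOX arrays, against 5.81 on both no DOX arrays. DOX array 2 alone lay below, and without it the change was 0.02 in place of -0.05 ± 0.09 (standard error, adjusted p = 0.884, limma). FKBP8, an immunophilin anchored in the outer membrane that also binds BCL2, was even on all arrays. Fkbp8 had log2 levels of 7.71, 7.70 and 7.68 on the DOX arrays, against 7.69 and 7.76 on the no DOX arrays. Its change was -0.03, with a 95% interval from -0.10 to 0.04, and its adjusted p was 0.77 (limma).

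Phb2 had log2 levels of 9.67, 9.58 and 9.60 on the DOX arrays, against 9.61 and 9.61 on the no DOX arrays. Both no DOX values lay inside the range of the DOX values, and the 95% interval of the change ran from -0.09 to 0.10 (adjusted p = 1, limma). BCL2L13 is a receptor with BCL2 homology domains that can take the place of the yeast receptor Atg32. Bcl2l13 had log2 levels of 6.30, 6.12 and 6.12 on the DOX arrays, against 6.12 and 6.12 on the no DOX arrays. DOX array 1 alone differed from the rest, and without it the change was 0 in place of 0.06 ± 0.07 (standard error, adjusted p = 0.77, limma).

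None of the 7 genes tested passed over all genes, and Bnip3l was the 1 gene with an unadjusted p under 0.05. Over all 19938 genes, 1 (0.00502%) passed with a lower and 2 (0.0100%) with a higher level, and 1.07% had an unadjusted p under 0.05 with a lower level. Exact ties between arrays, which were common in the deposited values, weigh on these figures. Of the 8 genes, 3 (Bnip3, Bnip3l and Fkbp8) had 5 distinct values, and 5 had a tie. The 95% intervals of Fundc1, Fundc2 and Pink1 all include the change of Bnip3l, so an absence of change in these genes is not shown. The intervals of Fkbp8 and Phb2 were narrower, but they depend on the tied genes. With the spread taken from genes with 5 distinct values, the standard error was 0.058 in place of 0.025 for Fkbp8. For Phb2 it was 0.060 in place of 0.033.

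**Figure D2:**
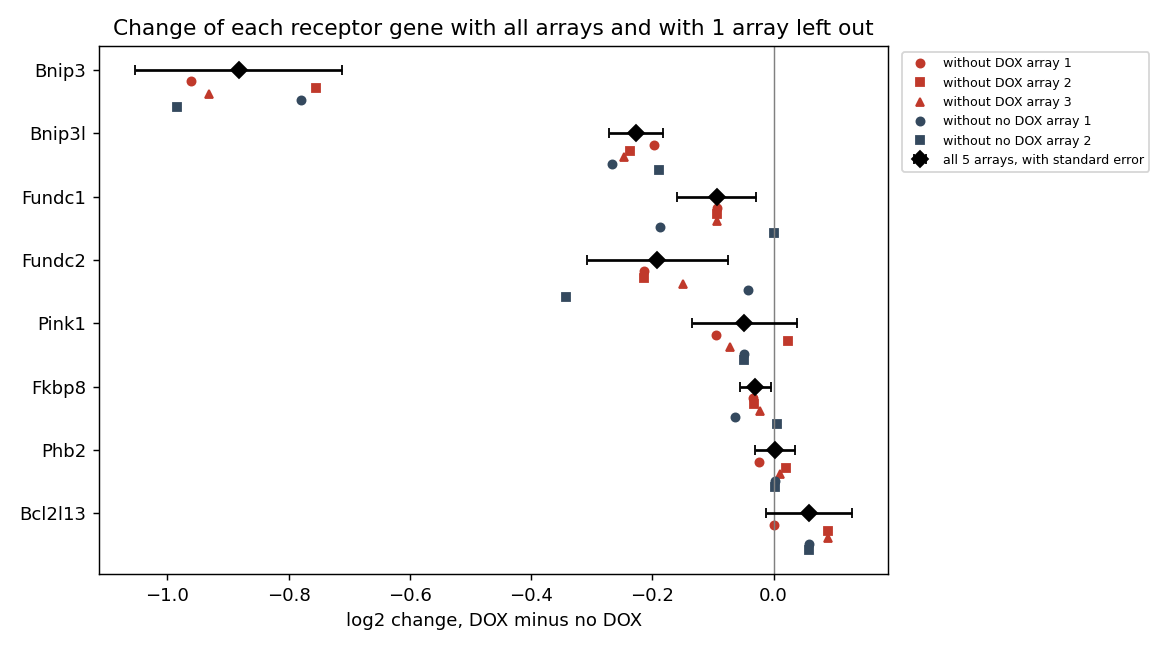
Log2 change (DOX minus no DOX, x axis) of each receptor gene with all 5 arrays (black diamonds, bars are standard errors) and with 1 array left out (coloured points). Bnip3 lay between -0.98 and -0.75 and Bnip3l between -0.27 and -0.19, and the points of Pink1, Fkbp8 and Phb2 fell on both sides of 0.

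The remainder of the mitophagy and autophagy pathway differed little between the groups. Over 117 further genes of 7 lists, the mean was lower in 71, higher in 33 and equal in 13, with a median log2 change of -0.01. None passed over all genes (limma), and 1, Tbc1d15, had an unadjusted p under 0.05. DOX values lay entirely below the no DOX values in 6 of the 117 genes (5.13%, against 3.08% of all genes) and entirely above in 1 (0.855%, against 1.65%). With a single no DOX array, 9 passed as lower and 1 as higher without array 1, and 5 and 3 without array 2, in fits that called 1097 and 883, and 928 and 1051, of all genes.

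Genes of the ubiquitin route, which marks mitochondria for removal downstream of PINK1, had changes from -0.11 to 0.04 in 22 measured genes. Tomm20, an import receptor of the outer membrane, had log2 levels of 8.48, 8.56 and 8.66 on the DOX arrays, against 8.68 and 8.66 on the no DOX arrays. Marchf5, a mitochondrial ubiquitin ligase gene, had a change of -0.05. In both genes the DOX values lay below the no DOX values by a narrow margin, and neither passed (adjusted p = 0.77, limma).

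Adaptors and kinases of selective autophagy spread more widely, from -0.30 to 0.21 in 15 measured genes. Calcoco2, whose human counterpart NDP52 carries ubiquitin-marked cargo to LC3, had log2 levels of 5.80, 5.75 and 5.49 on the DOX arrays, against 5.90 and 6.05 on the no DOX arrays. Its change was -0.30 ± 0.13 (standard error). Wdfy3, the gene of the scaffold ALFY, had 6.30, 6.30 and 6.61 on the DOX arrays, against 6.10 and 6.28 on the no DOX arrays. Tbc1d15, a RAB7 regulator that FIS1 brings to mitochondria, had a change of -0.05. All 3 separated the groups, and none passed (adjusted p = 0.77, limma).

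Genes of the partners that the receptors bind differed little between the groups. The 5 ATG8 genes had changes from -0.04 to 0.06, and in none did the groups separate. Map1lc3b had a log2 level of 6.75 on all 3 DOX arrays, against 6.75 and 6.83 on the no DOX arrays. Gabarap had 8.12, 8.15 and 8.18 on the DOX arrays, against 8.13 and 8.15 on the no DOX arrays. The 30 genes of the core autophagy machinery, from the ULK1 kinase complex to the ATG16L1 conjugation system, had changes from -0.13 to 0.08, again with no separated gene. Standard errors in this list reached 0.20 (Atg4c), so an absence of change is not shown.

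Of 8 genes for enzymes that act on the receptors, Src alone separated the groups. Src, the gene of a kinase that phosphorylates FUNDC1, had log2 levels of 6.03, 5.99 and 6.06 on the DOX arrays, against 6.22 and 6.07 on the no DOX arrays (adjusted p = 0.77, limma). Pgam5, the gene of a phosphatase that acts on FUNDC1, had a change of 0.02. The BCL2 family, to which BNIP3, NIX and BCL2L13 are related, was listed together with Bnip1, Bnip2 and Bnipl, which are not members. The 21 measured genes of this list had changes from -0.15 to 0.07 with no separated gene. Bcl2 itself had 1 value, 4.61, on all arrays, and Bnip2 had a change of -0.01.

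Genes of mitochondrial shape and mass gave similar pictures. Of 19 genes for fission, fusion and the prohibitin complex, Chchd3, a cristae organiser, alone separated the groups. It had log2 levels of 7.10, 7.23 and 7.23 on the DOX arrays, against 7.39 and 7.24 on the no DOX arrays, and it did not pass (adjusted p = 0.77, limma). The fission gene Dnm1l had 1 value, 9.07, on all arrays. The 11 markers of mitochondrial mass, such as Vdac1 and Tfam, averaged 9.15, 9.12 and 9.13 on the DOX arrays, against 9.17 and 9.15 on the no DOX arrays. Their changes ran from -0.10 to 0.05.

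**Figure D3:**
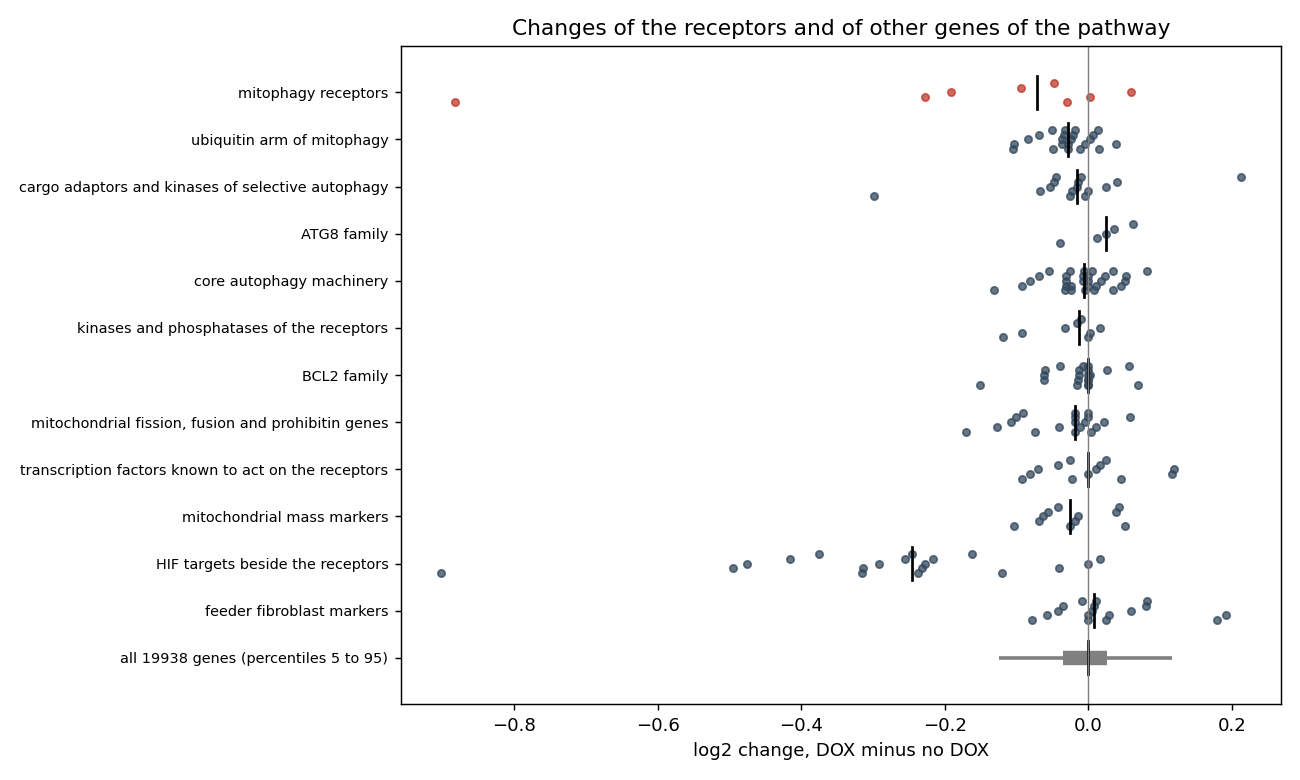
Log2 change (DOX minus no DOX, x axis) of each measured gene (points) in the receptor genes, the lists of the pathway, HIF targets and feeder markers, with list medians as black bars. The grey bar spans the 5th to 95th percentile of all 19938 genes, from -0.12 to 0.12, and its thick part the 25th to 75th. Bnip3, Bnip3l, Fundc2, most HIF targets (list median -0.25) and the feeder markers Tagln and Acta2 lie beyond it. The pathway lists lie mostly within it.

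Most other HIF targets also had lower mean levels on the DOX arrays, though none of the 19 measured passed over all genes (limma). The mean was lower in 17, equal in 1 (Mxi1) and higher in 1 (Higd1a, at 0.02), in a list put together with earlier results of these arrays known. DOX values lay entirely below the no DOX values in 14 of the 19 (73.7%, against 3.08% of all genes, a share that ties lower). The median log2 change was -0.25, against 0.00 over all genes. The separated genes with the largest changes were Egln3 at -0.90, the mTORC1 inhibitor gene Ddit4 at -0.50, the collagen prolyl hydroxylase gene P4ha1 at -0.48 and the oxidative folding gene Ero1a at -0.42. Hif1a, which encodes the oxygen-regulated subunit of HIF, had log2 levels of 8.16, 8.20 and 8.19 on the DOX arrays, against 7.98 and 8.16 on the no DOX arrays. The array values concern its mRNA, whereas HIF is controlled mainly through the stability of the protein. Foxo3, a transcription factor known to induce Bnip3 in muscle, had a change of 0.01. None of the 13 measured transcription factors separated the groups.

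The 6 genes with values most like those of Bnip3 were Egln3, Sall1, Prelid2, Jam2, Pilrb2 and Upp1. Likeness was the root mean square difference between log2 values over the 5 arrays, after subtracting each gene's mean. Egln3, which encodes the HIF prolyl hydroxylase PHD3, was nearest at 0.07, followed by Sall1 at 0.19 and Upp1 as the sixth at 0.26. Egln3 had log2 levels of 6.17, 5.80 and 6.01 on the DOX arrays, against 6.92 and 6.87 on the no DOX arrays, and like Bnip3 it was lowest on DOX array 2. Bnip3l ranked 243 of 19937. These values are a description over 5 arrays that share their groups. With the other probe set of Bnip3, none of the 6 remained among the nearest 6 and Egln3 ranked 1909. The nearest were then Olfr1271, Sprr2b, Mir434, A430060F13Rik, Vmn1r52 and 6030498E09Rik, so the ranking depended on the probe set.

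**Figure D4:**
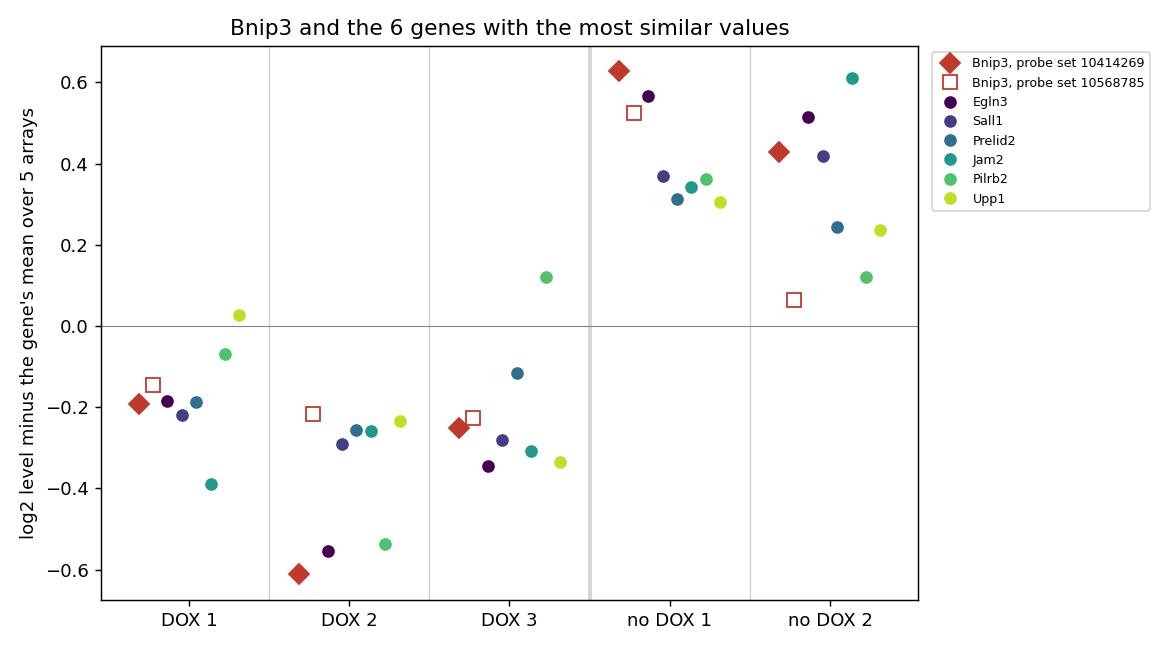
Log2 level minus the gene's mean over 5 arrays (y axis) on each array (x axis) for both probe sets of Bnip3 (red) and the 6 genes nearest to probe set 10414269. Egln3 differs from that probe set by a root mean square of 0.07, and the other probe set of Bnip3 (open squares) departs from both on DOX array 2 and no DOX array 2.

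The mean of the 17 feeder fibroblast markers, though not each marker, was slightly higher on every DOX array. With this mean as a covariate the log2 change of Bnip3 was -0.39 ± 0.08 (standard error) in place of -0.88. That of Bnip3l was -0.28 and that of Pink1 was 0.20. The feeder mean was 5.161, 5.184 and 5.163 on the DOX arrays, against 5.141 and 5.146 on the no DOX arrays. Because it separated the groups itself, the fit cannot reliably divide a change between feeder mean and DOX. The largest positive changes in the list were those of the smooth muscle and fibroblast genes Tagln and Acta2, at 0.19 and 0.18, and Col1a1 had -0.01. These 3 genes were named after their values were seen, and no marker passed over all genes (limma). The part of feeder RNA in these changes was not tested further.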

How the data were processed

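Gene expression was measured on 5 biotin-labelled arrays. The authors deposited log2 values for 35557 probe sets, made with RMA (background correction, normalization between arrays, summary per probe set) per the submitters' processing notes. No software, version, probe grouping or build is given in the sources used here. The log2 scale was read from the values (0.79 to 13.1). Normalization between arrays would hide a shift of all transcripts, and exact ties make the spread within groups too small: 9.03% of genes had 5 distinct values. The number of arrays limits the precision.

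A single gene symbol was listed for 21789 probe sets and several for 1621, while 12147 were not listed. Of the first, 21698 matched RefSeq (GRCm38.p6) by gene identifier. No filter on low values was used. DOX minus no DOX was fitted with limma 3.58.1 (lmFit, eBayes) in R 4.3.3 over 19938 genes, with Benjamini-Hochberg adjustment and a threshold of 0.05. An exact permutation test of 3 against 2 arrays has a smallest p of 0.1 and was left out. The fit was run on simulated data without ties, which does not test how it handles the tied values of these arrays. Promoter windows came from RefSeq.

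Members, lists and rules were chosen with earlier results of these data known. Named genes were the members, Satb1, up to 4 separated genes per list by size of change, and the 6 nearest to each Bnip3 probe set. Other list genes were named for their role after their values were seen. The alternatives tried were averaging a gene's probe sets, genes above the median level (5.06) and centred or again quantile-normalized arrays. Others were trend and robust eBayes, a spread from genes with 5 distinct values and untied genes. Further ones were the title number as a block (without DOX array 3), a feeder covariate and each array left out. The check of probe set positions and the likeness and left-out arrays with the other probe set were added after seeing the data.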

Additional observations from a re-analysis of the deposited data

How the results depend on the processing

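Bnip3 was chosen for its lower level on these arrays, and its log2 change was negative in all 15 alternatives. Settings that alter only the spread or the set of genes could not move its value. In 13, those settings among them, the change lay within the pooled within-group SD (0.20) of -0.88. It lay between -0.98 and -0.75 with single arrays left out and was -0.69 with the probe sets averaged. The change of Bnip3 was -0.39 with the feeder covariate, which itself separated the groups and whose part was not tested. It was -0.50 on the other probe set. Apart from the fits with single arrays left out, no member passed under any alternative. With single arrays left out, 0 to 1 members passed as lower (Fundc1, without no DOX array 1) and 0 as higher, and 0 to 9 of the other mitophagy and autophagy genes passed as lower and 0 to 3 as higher. Those calls came from fits with a lone no DOX array, assumed to vary like the DOX arrays. For the 7 other members, 87 of 94 alternatives kept the direction and the side of the threshold. Settings that alter only the spread or the set of genes could not change the direction. The change was 0 in 2 (Fundc1 without no DOX array 2 and Bcl2l13 without DOX array 1). With single arrays left out, Pink1 ran from -0.095 to 0.023, Fkbp8 from -0.064 to 0.005 and Phb2 from -0.024 to 0.021. Pink1 was at 0.20 with the feeder covariate. Same-numbered arrays were not shown to be paired, with correlations of -0.0063 and 0.0063 between their deviations from the group means. With the number as a replicate block, DOX array 3 was left out. Bnip3 was then at -0.93, as in the unblocked fit without that array, and no member passed. Fundc1, Fundc2, Pink1, Phb2 and Bcl2l13 had ties and gave no value when only untied genes were tested.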
